A study of Homo sapiens with 4 samples.

Results

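The genes described here are the epithelial cytokines and the transglutaminases that are discussed in celiac disease (CeD): *IL15* and its presenting receptor *IL15RA*, *IL18* and its secreted inhibitor *IL18BP*, the cytokines *IL7* and *IL33*, and the transglutaminases *TGM1* and *TGM2*. They were chosen by symbol, with earlier results of these data known. Symbols were matched to rows through the Ensembl identifier, without regard to any measured value. All 8 were found among the 37515 genes of the count table. RNA-seq was performed on Caco-2 cells, all labelled WT, a human colorectal carcinoma line that forms polarized, enterocyte-like monolayers. The cells were grown on transwells for 15 days. In 2 libraries the basal side then received 60 ng/ml IFNγ for 3 h (IFNγ replicates 1 and 2), and the other 2 libraries came from unstimulated cells at 0 h that received medium alone (0 h replicates 1 and 2). Since the controls were labelled 0 h, the effect of IFNγ and of 3 h of elapsed time cannot be told apart. All 4 libraries came from a single cancer cell line without immune cells, and nothing in the labels says that the 2 libraries of a group came from separate cultures, so the p-values measure the spread between these libraries, which may be technical.

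In the celiac lesion, gluten-specific CD4+ T cells secrete IFNγ, which binds a receptor on epithelial cells and alters their transcription. IL-15 is made by epithelial and antigen-presenting cells, is held on the surface by IL-15Rα and is presented to the IL-2Rβ and common γ chains of neighboring intraepithelial lymphocytes. IL-18 is stored as a precursor that caspase-1 cleaves, and IL-18BP captures the mature cytokine. Transglutaminase 2, the product of *TGM2*, is the autoantigen of CeD and deamidates gluten peptides so that they bind more strongly to HLA-DQ2 and HLA-DQ8.

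The libraries held between 7171455 and 10365346 counted reads, and values below are raw counts or CPM, the counts scaled by TMM to a common library size. Over all genes, 14820 passed the filter on low counts. A gene was called when its adjusted p was under 0.05 in edgeR's quasi-likelihood test and its log2 fold change exceeded 1 in size. By this rule 427 genes were higher (2.88% of those tested) and 652 lower (4.40%) at 3 h of IFNγ, 7.28% in all, or 415 and 300 once a trend with GC content and length was removed. The median log2 fold change of all tested genes was -0.01. Of 16 epithelial markers 15 were abundant enough to test, and their summed level was 11200 to 13400 CPM. The intestinal transcription factor *CDX2* was called higher at 3 h (178 and 177 CPM, then 409 and 406 CPM, adjusted p = 0.00117) and the brush border disaccharidase *SI* lower (log2 fold change -1.13, adjusted p = 0.0256), and 4 markers in all were higher and 2 lower at an adjusted p under 0.05. The defining lymphocyte gene *PTPRC* had 0 counts in 3 libraries and 2 counts in IFNγ replicate 1, and the 8 lymphocyte markers together reached 3.64 to 5.26 CPM. The summed level of 7 myeloid markers was 23.8 to 31.8 CPM, that of 7 endothelial markers 5.36 to 8.19 CPM and that of 8 fibroblast markers 115 to 211 CPM. Of these 4 lists of other cell types, 2 lymphocyte, 5 myeloid, 5 fibroblast and 2 endothelial genes could be tested. Of these 0 were called, beside 7.28% of all tested genes.

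Among the 8 genes, *IL15RA* was called higher, *TGM2* rose by less than the fold threshold, and *IL15*, *IL18*, *IL18BP* and *TGM1* did not pass the test. *IL7* was too low to test, and *IL33* had no counts. Of the 6 tested genes 1 was therefore called higher and 0 lower, beside 2.88% and 4.40% of all tested genes and 7.28% in either direction. The median log2 fold change of the 6 was 0.09. An adjusted p under 0.05 without the fold threshold was reached by 2 of the 6, both higher. Of all 14820 tested genes, 2963 reached it in either direction, 1337 higher (9.02%) and 1626 lower. *IL15RA* passed the filter through its IFNγ libraries alone, so a test of it was possible only because it was high there, and these counts over the tested genes are a description.

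**Figure D1:**
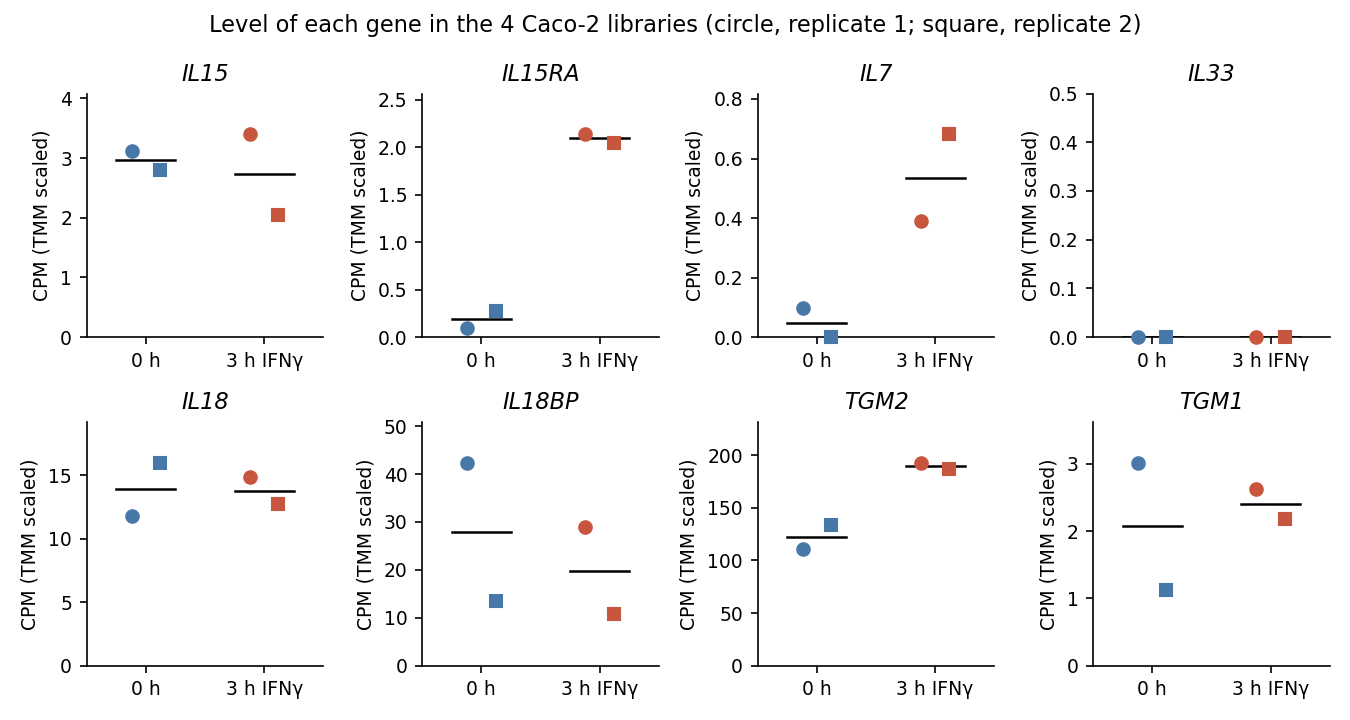
Level of each of the 8 genes in CPM (TMM scaled, each panel with its own axis from 0) at 0 h (blue) and 3 h of IFNγ (red), with a circle for replicate 1, a square for replicate 2 and a line at the group mean. *IL15RA* and *TGM2* are higher in both IFNγ libraries, *IL18BP* is split by replicate number, and *IL33* is at 0 throughout.

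*IL15RA* encodes the α chain that binds IL-15 and presents it in trans. The gene (ENSG00000134470) lies on the minus strand of chromosome 10 at 5985602 to 6020150 in GENCODE's annotation of GRCh37. It had 1 count and 2 counts at 0 h, against 22 and 15 counts at 3 h of IFNγ. Both IFNγ libraries were thus well above both controls. Groups that did not overlap, with IFNγ higher, were seen for 31.6% of all tested genes. At 0 h the *IL15RA* transcript was under the detection limit of 3 counts in both libraries. In CPM the level went from 0.189 ± 0.129 to 2.09 ± 0.0659 (SD, n = 2 each). The ratio of the summed counts, scaled for depth, was 12.2, with a 95% interval for counting error of 3.86 to 61.8. The fitted log2 fold change was 3.49 (SE 0.61, 95% interval 2.05 to 4.93, edgeR adjusted p = 0.00893), but its size depends on the prior used for such low counts. Without 0 h replicate 1 the log2 fold change was 2.84 and the adjusted p 0.0641. DESeq2 assigned *IL15RA* no adjusted p by default, and 0.0345 without its filter on mean counts. A long non-coding RNA on the same strand, ENSG00000232807, shares 151 exonic bases (4.16%) with *IL15RA* and had 3 and 2 counts at 0 h and 7 and 0 counts at 3 h.

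Promoter windows are shown for *IL15RA* and *IL18BP*, the receptor that was called and the inhibitor that was not, because interferon-activated factors bind DNA through short, recognizable patterns. Each window holds 300 bases, from 250 before a RefSeq transcription start to 50 after it, on the strand of the gene in GRCh38.p14. Of the 8 genes, 3 had such windows (4 for *IL15RA*, 4 for *IL18BP* and 2 for *IL33*), numbered here along the chromosome. They were searched on both strands for the core of an interferon-stimulated response element (ISRE: GAAA, any 2 bases and GAAA again), for AANNGAAA (an IRF site, contained in every ISRE core) and for TTCNNNGAA (a gamma-activated site, GAS), and matches are in capitals.
IL15RA start 2, chr10:5977494-5977793, minus strand: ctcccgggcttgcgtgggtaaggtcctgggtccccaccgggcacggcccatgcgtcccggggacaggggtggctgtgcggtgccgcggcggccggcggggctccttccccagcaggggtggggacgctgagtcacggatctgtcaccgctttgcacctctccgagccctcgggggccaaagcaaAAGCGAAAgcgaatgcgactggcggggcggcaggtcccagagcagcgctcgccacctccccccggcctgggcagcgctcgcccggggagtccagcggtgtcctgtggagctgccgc
IL15RA start 4, chr10:5977997-5978296, minus strand: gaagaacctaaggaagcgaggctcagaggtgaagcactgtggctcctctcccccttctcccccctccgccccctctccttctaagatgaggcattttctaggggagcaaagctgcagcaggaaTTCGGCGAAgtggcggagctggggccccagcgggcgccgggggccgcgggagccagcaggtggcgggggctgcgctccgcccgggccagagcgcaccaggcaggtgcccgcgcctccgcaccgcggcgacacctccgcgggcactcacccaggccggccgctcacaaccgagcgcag
IL18BP start 3, chr11:71999367-71999666, plus strand: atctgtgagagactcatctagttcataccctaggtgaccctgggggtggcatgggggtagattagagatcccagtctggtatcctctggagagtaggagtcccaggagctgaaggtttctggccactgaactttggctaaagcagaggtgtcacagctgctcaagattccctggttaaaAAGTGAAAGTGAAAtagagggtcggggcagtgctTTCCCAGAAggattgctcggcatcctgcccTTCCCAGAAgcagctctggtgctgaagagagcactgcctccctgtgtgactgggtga

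The second *IL15RA* start held an IRF site at -66 to -59, which also lies in the overlapping window of start 3 at 3 to 10. Start 4 of *IL15RA* held a GAS pattern at -127 to -119. Start 3 of *IL18BP* held an ISRE core at -67 to -58, overlapping a pair of IRF sites at -71 to -64 and -65 to -58. The same window held GAS patterns at -37 to -29 and -7 to 2. No pattern was found at starts 1, 2 and 4 of *IL18BP* or at start 1 of *IL15RA*. Among all 35116 promoter windows of this length, 3.57% held the ISRE core, 22.8% the IRF site and 7.66% the GAS pattern. These shares are per window, while 4 windows each were searched for *IL15RA* and *IL18BP*. The window with the most matches of the 10 belonged to *IL18BP*, whose RNA did not pass the test at 3 h. A match describes the letters and is not a bound site.

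**Figure D2:**
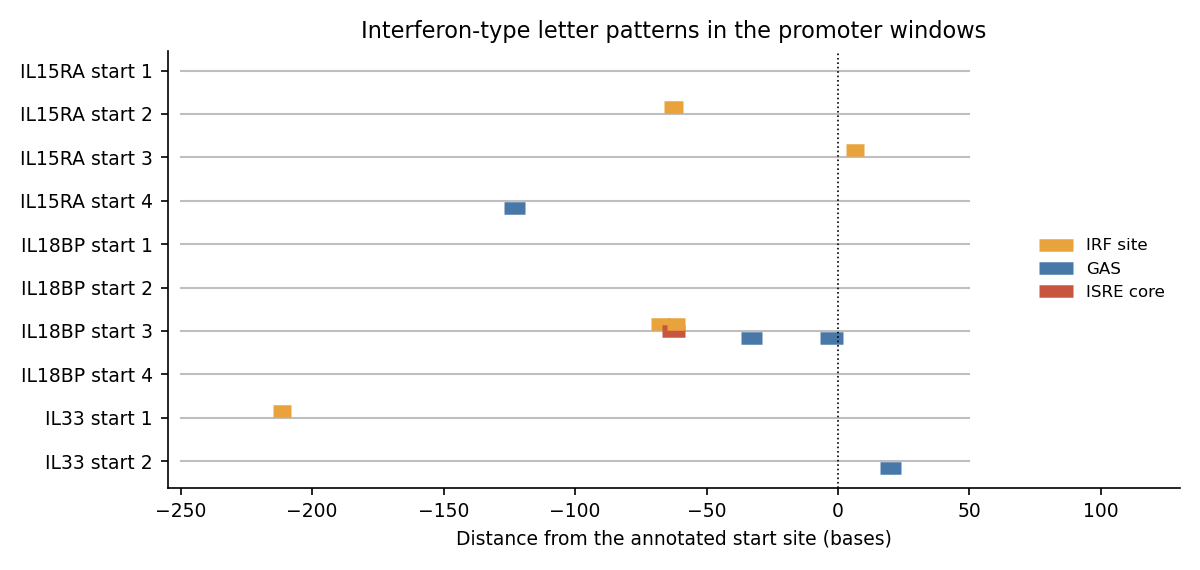
Positions of the 3 searched patterns in the 10 promoter windows of *IL15RA*, *IL18BP* and *IL33*, in bases from the transcription start site (dotted line), with IRF sites in orange, GAS patterns in blue and the ISRE core in red. Of the 10 windows 6 hold at least 1 pattern, and the ISRE core appears only in a window of *IL18BP*.

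*IL15*, the cytokine that IL-15Rα presents, was low and did not pass the test. The gene (ENSG00000164136; chromosome 4, 142557736 to 142655140, plus strand) had 32 and 20 counts at 0 h and 35 and 15 counts at 3 h of IFNγ. The groups overlapped, with both the highest and the lowest level in the IFNγ libraries, at 3.40 and 2.05 CPM. The level was 2.96 ± 0.222 CPM at 0 h and 2.73 ± 0.960 CPM at 3 h, a log2 fold change of -0.10 (SE 0.37, adjusted p = 0.879). The 95% interval of -0.96 to 0.77 leaves room for a change of either sign, and the sign turned to 0.33 once the trend with GC content and length was removed. Per kilobase of exon, the level of *IL15RA* was 0.0677 and 0.217 times that of *IL15* at 0 h, and 1.36 and 2.17 times that of *IL15* at 3 h. Per length, receptor RNA thus exceeded ligand RNA in both IFNγ libraries and in neither control. In raw counts it did not exceed it, at 22 and 15 against 35 and 15 at 3 h. The order therefore rests on the annotated exon lengths, 3633 bases for *IL15RA* and 7876 for *IL15*. These need not be the lengths of the transcripts present. *IL15RA* had 22 counts or fewer in each library, so these ratios carry a wide counting error.

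*IL7*, a lymphocyte survival factor whose receptor shares the common γ chain, was near the detection limit. The gene (ENSG00000104432, chromosome 8, minus strand) had 1 and 0 counts at 0 h and 4 and 5 counts at 3 h. The groups did not overlap, which with IFNγ higher was seen for 31.6% of all tested genes. The depth-scaled ratio of the summed *IL7* counts was 8.90, with a counting interval of 1.23 to 390. No fold change was fitted, since the gene did not pass the filter. Its exons share 322 bases (9.49%) with *ZC2HC1A* on the opposite strand, which was lower at 3 h (log2 fold change -1.37, SE 0.35, adjusted p = 0.0348).

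*IL18* was expressed in all libraries and did not differ detectably. The gene (ENSG00000150782; chromosome 11, 112013976 to 112034819, minus strand) had 121 and 114 counts at 0 h and 153 and 93 counts at 3 h of IFNγ. In CPM these were 11.8 and 16.0 against 14.9 and 12.7, so both IFNγ libraries lay between the 2 controls. The means were 13.9 ± 2.96 and 13.8 ± 1.55 CPM, with a log2 fold change of 0.01 (SE 0.21, adjusted p = 0.985). The 95% interval of -0.49 to 0.50 leaves out a doubling of *IL18* RNA.

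*IL18BP*, the gene of the secreted IL-18 inhibitor, differed more between replicate numbers than between treatments. The gene (ENSG00000137496; chromosome 11, 71709659 to 71718361, plus strand) had 435 and 97 counts at 0 h and 297 and 79 counts at 3 h. Replicate 1 was the higher library in both groups, by 3.12-fold at 0 h and 2.68-fold at 3 h on the CPM scale, and only 38 of the 14820 tested genes (0.256%) had replicate 1 as far above replicate 2 in both groups. The levels were 28.0 ± 20.3 CPM and 19.8 ± 12.8 CPM, the groups overlapped, and the log2 fold change was -0.49 (SE 0.56, 95% interval -1.80 to 0.81, adjusted p = 0.569). Leaving out IFNγ replicate 1 gave -1.42 (adjusted p = 0.0349), and leaving out 0 h replicate 1 gave 0.57, fits in which the groups held unequal numbers of replicate 1 and replicate 2 libraries. The summed level of the 8 fibroblast markers was also higher in replicate 1, at 211 and 115 CPM at 0 h and 187 and 149 CPM at 3 h, and most of it was the collagen *COL1A1* (179 and 89.4 CPM, then 168 and 118 CPM). The other 4 tested fibroblast markers were *COL3A1*, *LUM*, *PDGFRA* and *PDGFRB*. All were higher in replicate 1 than in replicate 2 at 0 h, and lower in replicate 1 at 3 h. *COL1A2*, *DCN* and *ACTA2* had 0 or 1 counts. The part of these genes in the *IL18BP* difference was not tested. The ratio of *IL18* to *IL18BP* per kilobase was 0.625 and 2.64 at 0 h and 1.16 and 2.64 at 3 h, with overlapping groups. *IL18BP* shares 1031 exonic bases (17.6%) with *NUMA1* on the opposite strand. *NUMA1* had 225 and 185 CPM at 0 h and 189 and 178 CPM at 3 h, and how the counting treated strand is not given in the sources used here.

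*IL33*, an alarmin of the IL-1 family that is stored in the nucleus of epithelial and endothelial cells, had 0 counts in all 4 libraries. The gene (ENSG00000137033; chromosome 9, 6215786 to 6257983, plus strand) could have been present at up to 0.0857 CPM, the level that 3 counts over all libraries correspond to. This limit, like the other counting intervals, covers counting error only.

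*TGM2* was the most abundant of the 8 genes and rose moderately. The gene (ENSG00000198959; chromosome 20, 36755787 to 36794980, minus strand) had 1142 and 956 counts at 0 h and 1983 and 1374 counts at 3 h of IFNγ. Both IFNγ libraries, at 193 and 187 CPM, were above both controls, at 111 and 134 CPM. The means were 123 ± 16.1 and 190 ± 3.82 CPM (SD, n = 2 each), a 1.55-fold rise (log2 fold change 0.64, SE 0.13, 95% interval 0.33 to 0.94, adjusted p = 0.0145). Groups that did not overlap, with IFNγ higher, were seen for 31.6% of all tested genes. Without 0 h replicate 1 the log2 fold change was 0.51 and the adjusted p 0.0703. *RPRD1B* shares 396 exonic bases (4.98%) with *TGM2* on the opposite strand, and its log2 fold change was 0.20 (adjusted p = 0.239).

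*TGM1*, the keratinocyte transglutaminase that cross-links the cornified envelope of skin, was low. The gene (ENSG00000092295; chromosome 14, 24718320 to 24733638, minus strand) had 31 and 8 counts at 0 h and 27 and 16 counts at 3 h. The groups overlapped, at 3.02 and 1.12 CPM against 2.63 and 2.18 CPM, and the log2 fold change was 0.17 (SE 0.49, 95% interval -0.97 to 1.31, adjusted p = 0.837). *TGM2* made up 96.6% and 98.9% of all counts of the 9 transglutaminase family genes at 0 h, and 98.2% and 98.0% at 3 h. None of the other 7 family members passed the filter on low counts. *F13B*, the non-catalytic carrier subunit of coagulation factor XIII, could be tested and had a log2 fold change of -0.84 without passing the test.

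**Figure D3:**
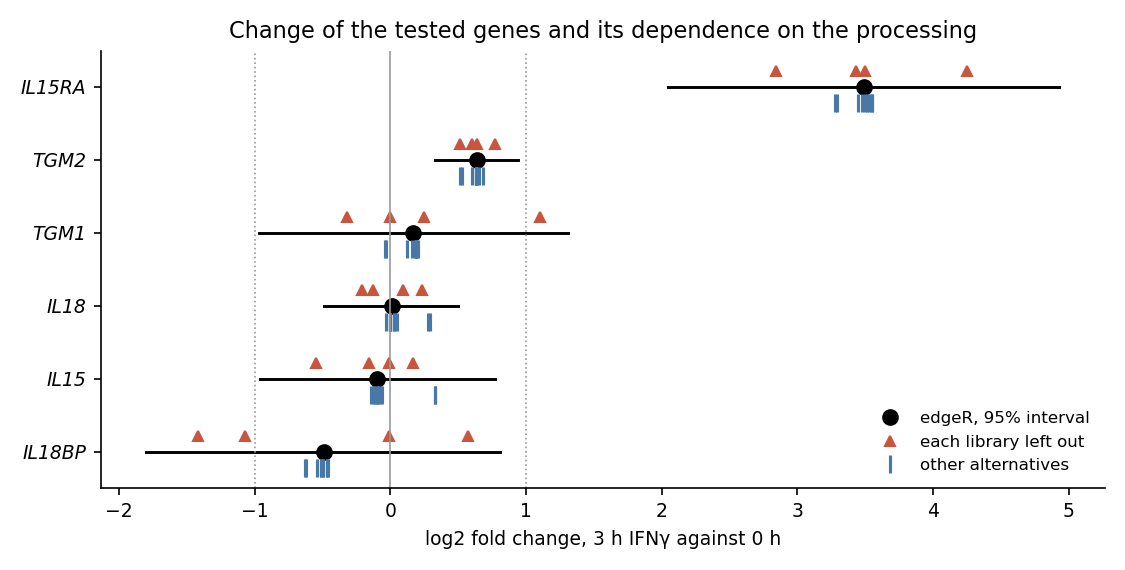
Log2 fold change at 3 h of IFNγ against 0 h for the 6 tested genes, with black points and bars for the fitted value and its 95% interval, red triangles for fits that leave out 1 library, blue ticks for the other alternatives, and dotted lines at the fold threshold. The intervals of *IL15RA* and *TGM2* lie above 0, and those of *IL15*, *IL18*, *IL18BP* and *TGM1* include 0.

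Ordered by level per kilobase of exon at 0 h, *TGM2* came first with a mean of 15.4 CPM per kilobase. *IL18* followed with 5.33 and *IL18BP* with 4.78, whose libraries overlapped. *TGM1* with 0.554 and *IL15* with 0.376 overlapped as well, as did *IL15RA* with 0.0520 and *IL7* with 0.0144, and *IL33* was at 0. At 3 h *IL15RA* had a mean of 0.576 CPM per kilobase, between *TGM1* with 0.644 and *IL15* with 0.346, while *TGM2* reached 23.9. The 3 h libraries of *IL15RA* (0.589 and 0.563) overlapped those of *TGM1* (0.703 and 0.584). Over all libraries *TGM2* lay at the 91.5th percentile of genes with counts, *IL18* at the 75.3rd and *IL15* at the 42.4th.

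The receptor chains that would receive IL-15 were incomplete in these cells. Of 18 genes for the IL-15 and IL-7 receptors and their signaling, 14 had a row and 7 could be tested. Their median log2 fold change was 0.36, and 2 were called higher and 1 lower, beside 2.88% and 4.40% of all tested genes. *IL2RB*, the β chain needed for IL-15 signaling, had at most 1 count in any library. *JAK3*, the kinase that pairs with the common γ chain, and *IL7R* had 0 counts in all 4. The common γ chain *IL2RG* was present, at 568 and 453 counts at 0 h and 774 and 600 counts at 3 h, and its log2 fold change was 0.41 (SE 0.13, adjusted p = 0.0680). The kinase *JAK1* stood at 0.36 on the same scale (SE 0.11, adjusted p = 0.0672). *IL4R*, the IL-4 receptor α chain, rose from 328 and 238 counts to 1147 and 880 counts (log2 fold change 1.83, SE 0.12, adjusted p = 4.66e-04). *STAT5A*, a transcription factor downstream of these receptors, rose from 8 and 3 counts to 21 and 21 (1.93 on the log2 scale, adjusted p = 0.0329), and *TSLP*, an IL-7-like cytokine, fell from 13 and 9 counts to 3 and 2 (log2 fold change -2.10, adjusted p = 0.0404). *TSLP* passed the filter on low counts through the controls alone and *STAT5A* through the IFNγ libraries alone. Both calls were lost when single libraries were left out (any of the 4 for *TSLP*, any but IFNγ replicate 1 for *STAT5A*) and by DESeq2 without its filter on mean counts, with adjusted p up to 0.296 and 0.149.

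Several genes around IL-18 were at or near 0, and *IL1B* was the only one called. Among 20 other IL-1 family cytokines, receptors and adaptors, 18 had a row and 8 could be tested. Their median log2 fold change was -0.27, and 0 were called higher and 1 lower, beside 2.88% and 4.40% of all tested genes. *IL1B* fell from 12 and 11 counts to 2 and 2 (log2 fold change -2.48, SE 0.61, adjusted p = 0.0301), and passed the filter through the controls alone. This call was lost when any 1 library was left out and by DESeq2 without its filter on mean counts (adjusted p up to 0.203). The IL-18 receptor chain *IL18R1* had 6 and 3 counts at 0 h and 7 and 2 counts at 3 h, and *IL18RAP* had 0 counts. The adaptor *MYD88*, shared by IL-1 family and Toll-like receptors, rose by 0.96 on the log2 scale (SE 0.13, adjusted p = 0.00364). The receptor accessory chain *IL1RAP* fell by 0.71 (adjusted p = 0.0365) and the kinase *IRAK4* fell by 0.71 (adjusted p = 0.0371). Neither passed without 0 h replicate 2 or with the GC and length trend removed, nor did *IRAK4* without 0 h replicate 1 or IFNγ replicate 2 or by DESeq2. Over the 14 alternatives *IL1RAP* passed in 12 and *IRAK4* in 8, with adjusted p up to 0.156 and 0.119. Of 19 genes for inflammasomes and cytokine processing, 9 could be tested, with a median of 0.10. Of these 0 were called, beside 7.28% of all tested genes. *CASP1*, whose product cleaves pro-IL-18, had 11 and 7 counts at 0 h and 19 and 9 counts at 3 h (log2 fold change 0.60, SE 0.45, adjusted p = 0.389), and the inflammasome adaptor *PYCARD* had 0 counts. *CARD8*, an inflammasome sensor, fell by 0.92 (adjusted p = 0.0354). *CARD8* passed in 8 of 14 alternatives (adjusted p up to 0.143), and not without either control, without IFNγ replicate 2, by DESeq2 or with the GC and length trend removed.

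Most genes linked to extracellular transglutaminase 2 did not pass the test, as was true of most tested genes. Of 16 such partners 15 could be tested, and 0 were called, beside 7.28% of all tested genes. Their median log2 fold change was 0.07. Thioredoxin (*TXN*), which reduces and activates the extracellular enzyme, had a log2 fold change of -0.14 (SE 0.24, adjusted p = 0.723). *PDIA3*, which oxidizes and inactivates it, had 0.07 (SE 0.13, adjusted p = 0.745), and *LRP1*, the endocytic receptor that takes it up, had 0.28 (SE 0.16, adjusted p = 0.265). *TGFB1*, a growth factor whose latent complex the enzyme helps to anchor in the matrix, rose by 0.67 (SE 0.14, adjusted p = 0.0144), and *SMAD3*, a transcription factor of TGF-β signaling, fell by 0.95 (SE 0.13, adjusted p = 0.00364). *TGFB1* passed in 11 of 14 alternatives, and not without 0 h replicate 1, without IFNγ replicate 2 or with the GC and length trend removed (log2 fold change down to 0.42, adjusted p up to 0.0754).

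Among transcription factors that are known to act on these genes, *IRF1* had the highest fold change. All 18 transcription factors in this list could be tested, with a median log2 fold change of 0.32. Of these, 4 were called higher and 1 lower, beside 2.88% and 4.40% of all tested genes. *IRF1*, which binds IRF sites, rose from 198 and 144 counts to 12348 and 7949 counts (log2 fold change 5.86, SE 0.14, adjusted p = 7.43e-06). *STAT3* rose by 1.14 (adjusted p = 0.00152) and *IRF8* by 1.11 (adjusted p = 0.00211). *IRF7*, *RELA* and *CEBPB* rose by 0.87, 0.78 and 0.64 on the log2 scale without reaching the fold threshold, and *CEBPB* had an adjusted p under 0.05 in only 5 of 14 alternatives. It did not pass without either control, without IFNγ replicate 2, by DESeq2, with DESeq2 size factors, with library size only or with the GC and length trend removed (log2 fold change down to 0.35, adjusted p up to 0.247). The retinoic acid receptor *RARB* fell from 158 and 90 counts to 19 and 21 counts (log2 fold change -2.60, SE 0.29, adjusted p = 0.00211). *IRF9*, the DNA-binding subunit of the type I interferon complex, had 22 and 7 counts at 0 h and 68 and 14 counts at 3 h and did not pass the test (log2 fold change 1.43, SE 0.63, adjusted p = 0.151).

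**Figure D4:**
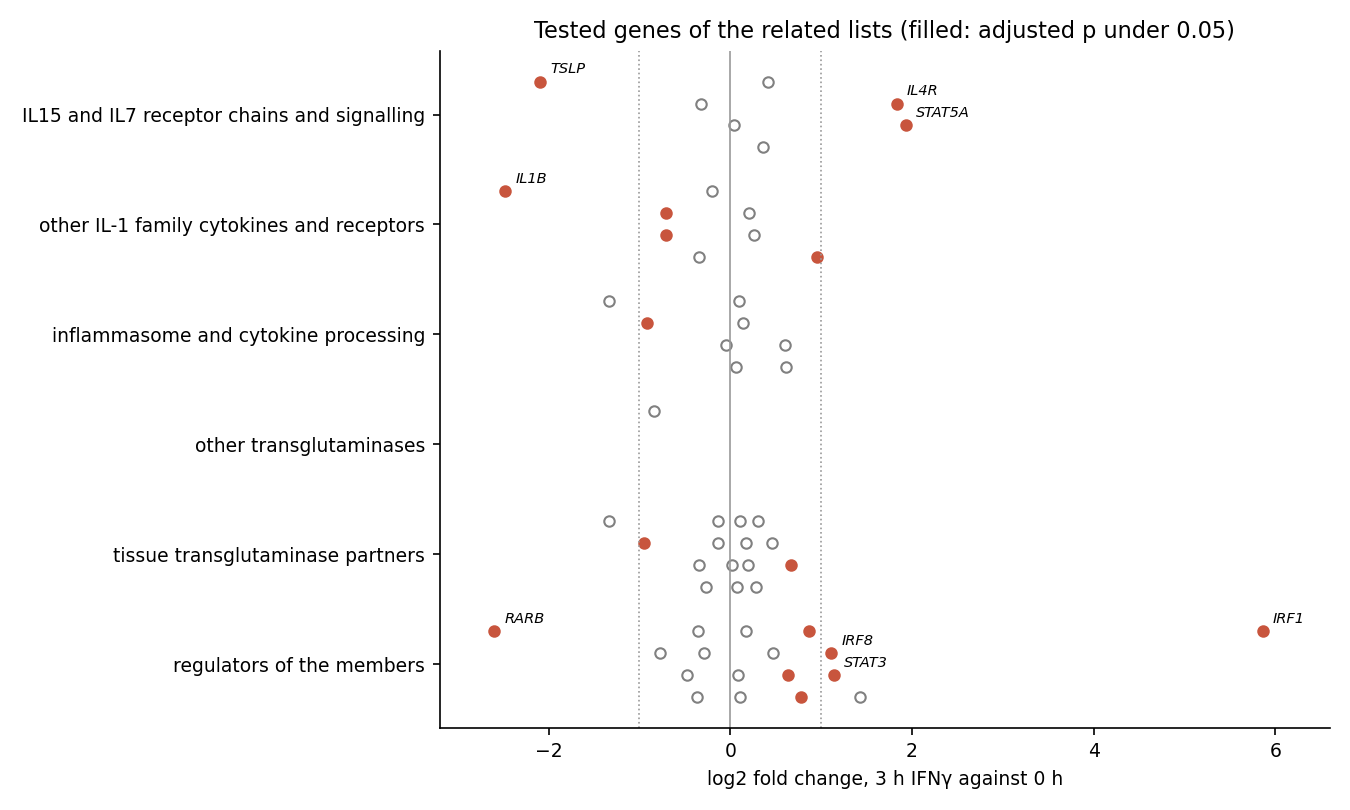
Log2 fold change at 3 h of IFNγ against 0 h for the tested genes of 6 related lists that are reported here, with filled points for an adjusted p under 0.05 and dotted lines at the fold threshold. *IRF1* lies far to the right of all others at 5.86, and 0 of the 15 tested transglutaminase partners are called, beside 7.28% of all tested genes.

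The genes whose profile was nearest to that of *IL15RA* over the 4 libraries, by Euclidean distance of centered log2 CPM among 12556 candidates, were *TPBGL* (0.286), *PARP15* (0.357) and *ICAM1* (0.398). *ICAM1*, an adhesion molecule for leukocytes, rose by 2.51 on the log2 scale (adjusted p = 1.14e-04). *PARP15* rose by 2.50 (adjusted p = 0.00729) and *TPBGL* by 2.37 (adjusted p = 0.00345). For *TGM2* the nearest were *ARPC4* (0.0247), a subunit of the actin-nucleating Arp2/3 complex, *SPAG1* (0.0665) and *LINC01806* (0.0672). Their log2 fold changes were 0.65, 0.62 and 0.63, and the adjusted p of *LINC01806*, 0.138, missed the threshold. These distances rest on 4 libraries in 2 groups. The genes were picked for their nearness in the same libraries, so similar changes follow from the choice and are a description. The prior count of 2 in the profiles shrinks the change of *IL15RA*, whose fitted log2 fold change was 3.49.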

How the data were processed

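Gene expression in the 4 Caco-2 libraries was read from the table that the authors deposited, which holds raw counts of reads per Ensembl gene, not normalized and with replicates not pooled. RNA was isolated with a mirVana kit and 1 µg entered a TruSeq RNA library. HISAT 0.5.1 and HTSeq 0.6.1p1 are named in the submitters' processing notes, and the genome build, annotation and strand setting are not given in the sources used here. Genes overlapping on opposite strands are therefore uncertain. Symbols were matched for 96.5% of identifiers. Exon lengths, GC content and coordinates came from GENCODE 44 on GRCh37, and promoter sequences came from RefSeq on GRCh38.p14.

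Counts were filtered (filterByExpr), scaled by TMM and tested by edgeR 4.0.16 (R 4.3.3, glmQLFit and glmQLFTest), with Benjamini-Hochberg adjustment over 14820 genes. Groups followed the labels, with 2 libraries each. Standard errors were taken from the fold change and its F statistic (log2 value over root F), and 95% intervals used 2 residual and 5.34 prior degrees of freedom. Log CPM used a prior count of 2. An exact permutation test of 2 against 2 cannot go below p = 0.333, so none is given. Counting intervals for ratios were exact, and depth of 7.14 to 10.3 counts per CPM set a floor (3 counts) of 0.292 to 0.420 CPM per library. The 2 libraries of a group differed beyond sampling noise (chi-square per degree of freedom 6.76 and 7.75) and were counted separately. The procedure was tested on simulated data. Alternatives were other scalings, filters and thresholds, DESeq2 1.42.0, each library left out, a replicate block and removal of a trend with GC content and length (loess, span 0.5).

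The genes and related lists were chosen with earlier results of these data known. Named were all 8 genes, every related gene with adjusted p under 0.05 (2 are not reported here, though they enter the counts of their lists), a preset few of each list, and the 3 nearest profiles (mean of at least 20 counts) of each of the 8 that passed. *PYCARD*, *JAK3*, *IL7R*, *IL18RAP*, *F13B*, *IRF9*, *PTPRC*, *CDX2*, *SI* and the fibroblast markers were named after their values were seen, as were overlapping genes. Listed genes without a row (*IL2RA*, *IL2*, *IL9*, *IL21*, *IL36B*, *IL1RL1*, *CARD18*, *TYROBP*, *PECAM1*) were not analysed here.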

Additional observations from a re-analysis of the deposited data

How the results depend on the processing

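The direction of *TGM2* held in all 14 alternatives that gave it a value (log2 fold change 0.51 to 0.77) with adjusted p under 0.05 in 13, and that of *IL15RA* in all 13 (2.84 to 4.25) with adjusted p under 0.05 in 11. Both tallies include the fit without a filter, whose p-values are not comparable, and fits that leave 1 library in a group. All alternatives refit the same libraries. Without the fold threshold 1337 genes were higher and 1626 lower (2 of the 8 genes higher), 382 were lower at adjusted p under 0.01, and 300 were lower with the GC and length trend removed (415 higher). With libraries left out in turn, 352 to 445 genes were called higher and 504 to 1239 lower, the last without IFNγ replicate 1, and of the 8 genes 0 to 1 were called higher and 0 to 1 lower. None of the 8 was called (0) by DESeq2, which gave 11946 genes an adjusted p but not *IL15RA*, or with at least 10 counts in every library, where *IL15RA* was not tested; DESeq2 without independent filtering, chosen after seeing the data, called it (3.55, adjusted p = 0.0345). The log2 fold changes that turned sign belonged to genes that did not pass the test. *IL15* gave 0.33 with the GC and length trend removed, with and without the block, and -0.55 to 0.17 with libraries left out. *IL18* gave -0.03 with library size only, -0.00 with DESeq2 (with and without its filter), and -0.21 to 0.23 with libraries left out. *IL18BP* gave -1.42 to 0.57 with libraries left out. *TGM1* gave -0.04 with the trend removed, -0.03 with the trend removed and the block, and -0.32 to 1.10 with libraries left out. The causes were not tested.

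The replicate numbers are shared by both groups, but no label ties them to a batch. With the replicate number as a block, 492 genes were called higher and 896 lower, *IL15RA* stayed called (3.50, adjusted p = 0.00433), no other call among the 8 changed, and *IL18BP* reached an adjusted p of 0.0309 at a log2 fold change of -0.47 (0.00641 at -0.62 with the GC and length trend also removed). The deviations of same-numbered libraries from their group means correlated with r = 0.415 over 14820 genes, which with 2 pairs does not establish a pairing. The p-values of the fit without a filter rest on an infinite prior and are not comparable. Depth limits *IL15RA*, *IL7*, *IL33*, *IL15* and *TGM1*, where a few counts separate the libraries.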

Other observations

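A pair of genes of the inflammasome list above were not among those named there and were chosen after their values were seen. *NLRP3*, the inflammasome sensor, was too low to test, with 0 and 1 counts at 0 h and 8 and 9 counts at 3 h of IFNγ. *GSDMB*, a pore-forming gasdermin, had 388 and 75 counts at 0 h and 132 and 45 counts at 3 h, with a log2 fold change of -1.34 (SE 0.57, edgeR adjusted p = 0.137). As for *IL18BP*, replicate 1 was the higher *GSDMB* library in both groups.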
